A study of Mus musculus with 4 samples.

Results

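Mv2 is one of the microvillar cell groups that the deposited annotation of the mouse main olfactory epithelium holds, the other being Mv1. Its members were all cells with the final cell type Mv2. They numbered 1768 of the 15859 cells that the authors retained, from 21809 cell barcodes in the series, with 476, 402, 400 and 490 cells in mice 1 to 4. The epithelia came from 4 male C57BL/6 mice (C57BL/6J in the study's methods) aged 8 weeks, which formed 1 group for which the labels name no treatment, and 1 droplet-based 3′ library was made per mouse. The tissue was dissociated with papain, and nucleated cells that excluded a dead-cell dye (Hoechst+/DRAQ7-) were sorted, so the cells are those that came through dissociation and the sort. The study asked how olfactory sensory neurons differ from each other, and the Mv2 cells were captured in the same suspensions.

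Microvillar cells are epithelial cells of the olfactory lining that carry microvilli instead of olfactory cilia. One kind resembles the tuft cells of other tissues, with the cation channel Trpm5, a cholinergic phenotype and leukotriene synthesis. Another kind carries the transcription factors Ascl3 and Foxi1 and the chloride channel Cftr and resembles ionocytes, the rare cells that set the salt and proton content of the fluid at airway, kidney and inner ear epithelia. Ionocytes use chloride and sodium channels and the vacuolar proton pump (V-ATPase), and they are known for many mitochondria.

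Levels are given as unique molecular identifiers (UMIs, 1 per captured transcript molecule) per 10000 UMIs of a cell type, from counts summed within each mouse (n = 4 mice throughout). Mv2 was compared with the equally weighted mean of the 9 other retained types, called the other types here, and with Mv1 alone. Those types were mature olfactory sensory neurons (mOSN), immature ones at an earlier and a later stage (iOSN1 and iOSN2), immediate neuronal precursors (INP), globose basal cells (GBC), horizontal basal cells in groups HBC1 and HBC2, sustentacular cells (Sus) and Mv1. A gene was counted as higher or lower when the ratio reached 4-fold in each of the 4 mice, and a level under 3 counts was set to 3 counts, so that some ratios are lower bounds. The types had been clustered on these same genes, so each contrast is a description and has no p-value.

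Mv2 made up 10.6, 10.8, 13.3 and 10.5% of the retained cells of mice 1 to 4, with a mean of 11.3 ± 1.33% (SD, n = 4). Mouse 3 stood above the others, which lay close together. Mv1 held 54, 26, 20 and 24 cells, 124 in all. The median UMI count of an Mv2 cell was 6281, 3563, 6311 and 4135.5 in mice 1 to 4, and the UMI sums of Mv2 ran from 1604948 to 3082702 per mouse, against 84314 to 206270 for Mv1. The Mv1 levels are therefore less precise than those of Mv2. Each library shared 22 to 36 of its cell barcodes with other mice, among them 1 or 2 Mv2 barcodes, and 0 of these were Mv2 in another mouse too.

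Of the 4 marker genes given for the group (Trpm5, Ascl3, Cftr and Foxi1), 3 marked Mv2 and 1 did not. With every cell thinned to 2000 UMIs, which left out 0, 33, 7 and 10 shallower Mv2 cells, Ascl3 was detected in 92.0% ± 2.46 of Mv2 cells, Cftr in 74.7% ± 2.79 and Foxi1 in 74.2% ± 4.82 (SD, n = 4). Without thinning the shares were 98.0%, 93.7% and 91.0%. In mature OSNs, which should lack these genes, the thinned shares were 0.168%, 0.0861% and 0.0646%, at median depths per cell that averaged 5147 UMIs in mOSN and 5073 in Mv2. At least 1 of the 3 was detected in 99.6% ± 0.348 of Mv2 cells, and all of them in 51.5% ± 5.32. Trpm5 was detected in 0 of 1718 thinned Mv2 cells, which allows a share of up to 0.175% of cells with a UMI at this depth (counting error only) and does not limit the share that express the gene, whereas 71.1% ± 13.5 of the thinned Mv1 cells had a Trpm5 UMI (80.9% unthinned, at a mean of median depths of 3530.2 UMIs). Without thinning 1 Mv2 cell had Trpm5 UMIs. Trpm5 therefore did not mark the group, which is called Mv2 here, by its deposited name.

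Out of 3814 genes with a mean level of at least 0.5 UMIs per 10000 over Mv2 and the other types, 224 (5.87%) were higher in Mv2 by the 4-fold rule and 264 (6.92%) were lower. The median log2 ratio over all tested genes was 0.07. A gene can pass the filter through Mv2 alone or through other types alone, and its direction then follows from the type that admitted it, so the counts within gene lists are descriptions of the genes that passed. For 97 of the 224, the mean Mv2 level was also at least 4 times that of the highest other type. The type nearest to Mv2 was Mv1 for 68 of the 224 genes, GBC for 50, HBC2 for 28, HBC1 for 25, Sus for 24 and a neuronal or precursor type for 29. Genes at the edge of the rule were Atp6v1d, Plekhg3 and Sult1c1 inside it, with lowest ratios of 4.04, 4.04 and 4.08, and Tmc4, Pxk and Bhlhe40 just outside, at 3.98, 3.98 and 3.97.

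Coch led the ranking by the lowest ratio among mice (ENSMUSG00000020953, chromosome 12, 51593341 to 51605771, plus strand, GRCm38). It encodes cochlin, a secreted protein best known from the inner ear. Its level in Mv2 was 172, 168, 162 and 156 UMIs per 10000 in mice 1 to 4, and the mean of the other types was 1.14 ± 0.553 (SD, n = 4). The Mv2 values lay close together, at 82.8 to 227 times the mean of the other types. Coch was detected in 99.9% of Mv2 cells, thinned or not, and also in 5.44% ± 0.580 of thinned mature OSNs, so a single Coch UMI did not mark a cell as Mv2. Stap1 (ENSMUSG00000029254, chromosome 5, 86071746 to 86106125, plus strand), which encodes an adaptor protein of tyrosine kinase signalling, was at 42.2, 43.5, 40.7 and 40.9 and was detected in 99.8% of thinned Mv2 cells (100.0% unthinned) against 0.252% of mature OSNs and 14.9% ± 10.1 of Mv1 cells. For both genes the Mv2 level exceeded that of each other type in every mouse.

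**Figure D1:**
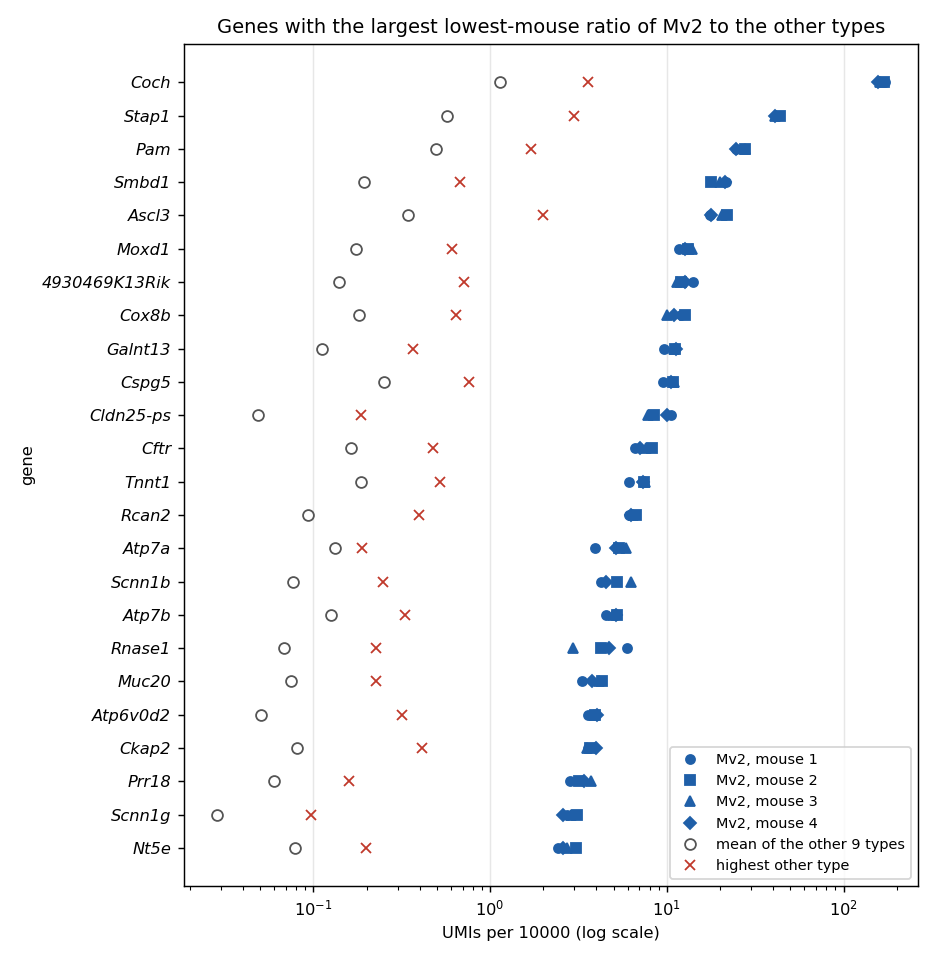
Levels (UMIs per 10000, log axis) of all but 1 of the 25 genes with the largest lowest-mouse ratio of Mv2 to the other types. Filled symbols are Mv2 in each of the 4 mice, open circles the mean of the other 9 types and crosses the highest other type; for Coch the cross is at 3.56 and the Mv2 symbols lie from 156 to 172.

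Transcription factors of ionocytes were high in Mv2. Ascl3 (ENSMUSG00000035951, chromosome 7, 109727465 to 109731726, minus strand), a basic helix-loop-helix factor, was at 17.5, 22.0, 20.7 and 17.8 UMIs per 10000 in mice 1 to 4, with GBC next at 1.99 ± 1.41 (SD, n = 4). Foxi1 (ENSMUSG00000047861, chromosome 11, 34204338 to 34208089, minus strand), a forkhead factor that specifies ionocytes of airway, kidney and inner ear, was at 6.68, 8.34, 8.09 and 7.28, with GBC next at 1.84 ± 0.782. In every mouse the Mv2 level of both factors was above that of each other type. Of 32 transcription factors listed, 20 were tested, 6 were higher in Mv2 and 4 lower, beside 5.87% and 6.92% of all tested genes. The 6 passed the filter through their Mv2 levels and the 4 through other types. The other four that were higher were Tfcp2l1, known from kidney intercalated cells, at 5.31 ± 0.609, Foxi2 at 1.64 ± 0.206, Dmrt2 at 1.72 ± 0.161 and Esrrg, a nuclear receptor of oxidative metabolism, at 1.37 ± 0.151. The lower ones were Lhx2, Ebf1 and Emx2, which act in olfactory neurons, and Sox9, at 0.0756 ± 0.0165 in Mv2 and 10.3 ± 2.34 in Mv1. Sox2, an epithelial factor, was at 2.36 ± 0.271 in Mv2 and 3.39 ± 0.540 in HBC1 and passed in neither direction.

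Of the 8 ionocyte markers listed, 7 were tested and 6 were higher in Mv2 (Ascl3, Cftr, Foxi1, Tfcp2l1, Atp6v0d2 and Bsnd), beside 5.87% of all tested genes. These 6 passed the filter through their Mv2 levels. The summed level of the list was 43.0 to 52.6 UMIs per 10000 in Mv2 and 0.776 to 6.22 in Mv1. The other two were V-ATPase subunits that were higher in sustentacular cells. Atp6v1c2 was at 2.14 ± 0.217 in Mv2 and 6.92 ± 0.535 in Sus, and Atp6v1b1, a subunit of kidney and inner ear ionocytes, was at 0.294 ± 0.102 in Mv2 and 1.81 ± 0.421 in Sus (SD, n = 4).

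The promoters of these factors and of leading genes were read from RefSeq (GRCm38.p6, from 250 bases before to 50 bases after the annotated start) and searched on both strands for letters that factors of these families can bind. The motifs were TGTTTAC with its reverse complement GTAAACA, a forkhead core, and the palindrome CAGCTG, an E-box of the kind that Ascl proteins bind, and the motifs share no overlap. Of the 25 leading genes 21 had a promoter in the table. The forkhead letters occurred in 1 of these 21 (4.76%) and in 10 of the 180 promoters found for the genes higher in Mv2 (5.56%), against 3.16% of the 3067 tested genes with a promoter and 4.05% of all 27025 genes with one. CAGCTG occurred in 6 of the 21 (28.6%) and in 34 of the 180 (18.9%), against 15.3% of the tested genes and 18.3% of all genes with a promoter. A match is a run of letters and not a bound site. The promoters of Ascl3 and Foxi1 are printed as those of the factors, Coch as the leading gene, and Muc20 and Cox8b as leading genes that hold the forkhead and the E-box letters. Each runs 5′ to 3′ on the strand of its gene, and capitals mark the matched letters, of which the windows of Ascl3, Foxi1 and Coch hold none. The Muc20 match began at base −248 relative to the annotated start (base 0), and those of Cox8b at bases −19 and 16.
Ascl3, chr7:109731683-109731982, minus strand: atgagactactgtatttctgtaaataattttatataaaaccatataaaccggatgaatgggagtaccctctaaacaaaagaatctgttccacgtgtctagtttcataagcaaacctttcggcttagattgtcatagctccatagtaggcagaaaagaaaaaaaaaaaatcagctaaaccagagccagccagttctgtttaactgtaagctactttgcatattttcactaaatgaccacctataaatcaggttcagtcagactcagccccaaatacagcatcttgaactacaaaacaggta
Foxi1, chr11:34208040-34208339, minus strand: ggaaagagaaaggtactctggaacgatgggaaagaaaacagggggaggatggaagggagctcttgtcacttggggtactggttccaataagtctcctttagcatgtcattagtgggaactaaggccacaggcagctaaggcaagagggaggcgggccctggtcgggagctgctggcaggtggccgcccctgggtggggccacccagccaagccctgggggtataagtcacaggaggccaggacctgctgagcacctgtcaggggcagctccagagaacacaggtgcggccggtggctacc
Coch, chr12:51593091-51593390, plus strand: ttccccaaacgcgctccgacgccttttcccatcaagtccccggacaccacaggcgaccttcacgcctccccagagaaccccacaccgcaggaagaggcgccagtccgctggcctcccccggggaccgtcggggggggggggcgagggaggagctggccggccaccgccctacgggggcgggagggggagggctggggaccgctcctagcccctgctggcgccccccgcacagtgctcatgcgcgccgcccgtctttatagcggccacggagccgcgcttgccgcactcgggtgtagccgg
Muc20, chr16:32797386-32797685, minus strand: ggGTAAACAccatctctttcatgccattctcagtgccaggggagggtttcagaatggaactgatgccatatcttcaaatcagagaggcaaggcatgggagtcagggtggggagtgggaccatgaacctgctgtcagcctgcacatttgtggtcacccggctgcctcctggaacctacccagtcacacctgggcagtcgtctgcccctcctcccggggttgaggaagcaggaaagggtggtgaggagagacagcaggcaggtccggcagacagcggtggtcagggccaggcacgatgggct
Cox8b, chr7:140900397-140900696, minus strand: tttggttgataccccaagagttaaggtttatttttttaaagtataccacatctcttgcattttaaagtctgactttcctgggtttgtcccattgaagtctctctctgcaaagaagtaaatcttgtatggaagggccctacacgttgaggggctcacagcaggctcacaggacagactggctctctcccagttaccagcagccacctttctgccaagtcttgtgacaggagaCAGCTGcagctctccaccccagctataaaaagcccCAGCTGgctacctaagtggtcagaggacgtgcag

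Cftr, Bsnd and Slc12a2, which act in chloride transport, were higher in Mv2. Cftr (ENSMUSG00000041301, chromosome 6, 18170687 to 18322768, plus strand), the apical anion channel mutated in cystic fibrosis, was at 6.59, 8.24, 7.66 and 7.10 UMIs per 10000, with Sus next at 0.474 ± 0.167 (SD, n = 4). Bsnd (barttin), a membrane protein of kidney and inner ear ionocytes, was at 1.75, 2.45, 2.69 and 2.07, with GBC next at 0.0655 ± 0.0203. The 4 mice did not overlap with any other type in either gene. Slc12a2, the Na-K-Cl cotransporter that loads cells with chloride from the basolateral side, was at 14, 17.1, 18.1 and 16.2, 8.64 to 9.18 times the other types, with mOSN next at 3.24 ± 0.347. Of 39 genes listed for chloride, bicarbonate and proton transport 8 were tested, 4 were higher, these 3 among them, 0 were lower and 4 were neither, beside 5.87% and 6.92% of all tested genes. Cftr and Bsnd passed the filter through Mv2, and Slc12a2 had a level of 1.83 ± 0.155 in the other types as well. The anion exchangers Slc26a4, Slc4a1 and Slc4a9, known from other ionocytes, were under 3 counts in at least 3 of the 4 mice, and none of 16 carbonic anhydrases listed reached the filter.

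All 3 subunits of the epithelial sodium channel (ENaC), which takes up sodium at the apical membrane, were higher in Mv2. Scnn1a was at 5.15, 6.16, 5.88 and 5.80 UMIs per 10000, 20.3 to 23.2 times the other types, with HBC2 next at 0.871 ± 0.0854 (SD, n = 4). Scnn1b was at 4.27, 5.20, 6.24 and 4.54, at least 35.0 times the other types, and Scnn1g was at 2.74, 3.09, 2.89 and 2.57, at least 29.4 times them. In thinned Mv2 cells Scnn1a, Scnn1b and Scnn1g were detected in 68.2%, 59.4% and 41.5% of cells, against 0.835%, 0.0483% and 0.0136% of mature OSNs. Unthinned, the Mv2 shares were 91.7%, 85.3% and 68.9%. Of 30 sodium and potassium transport genes listed, 10 were tested and 4 were higher, beside 5.87% of all tested genes, and the 4 passed the filter through Mv2. The fourth was Kcnk1, a potassium leak channel, at 4.55 ± 0.459. Fxyd3, a regulator of the sodium pump, was lower. Atp1b1, a subunit of the sodium pump, passed in neither direction against the other types, at 23.3 ± 0.740 in Mv2 and 19.2 ± 0.780 in mOSN. Of 11 aquaporins listed 3 passed the filter, through other types. Aqp3, Aqp4 and Aqp5 were at 0.0929 ± 0.0337, 0.0344 ± 0.0215 and 0.0124 ± 0.00910 in Mv2 and 6.01 ± 0.551, 2.22 ± 0.0734 and 3.10 ± 0.0920 in the other types.

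**Figure D2:**
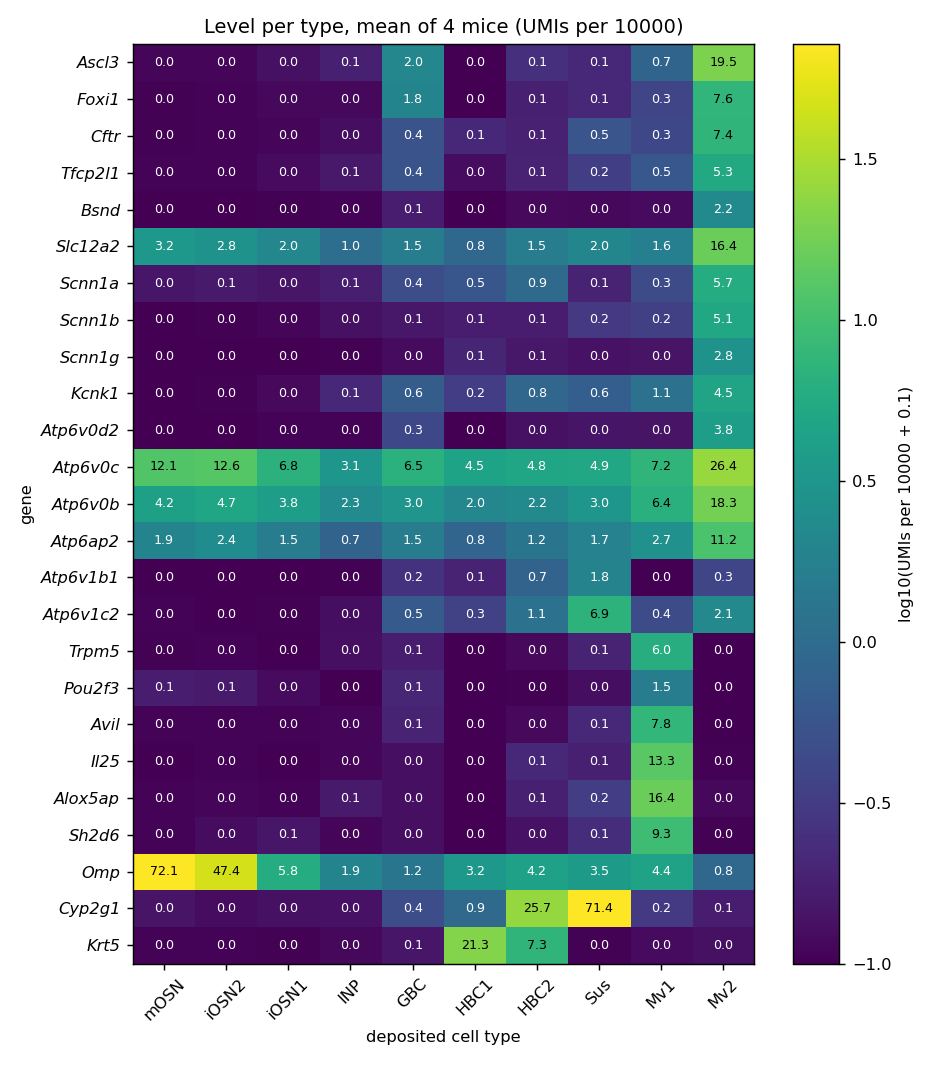
Mean level (UMIs per 10000 over 4 mice, printed in each cell of the map and coloured on a log scale) of selected ionocyte, transport, tuft-cell and other marker genes in the 10 retained types. The chloride and sodium channel genes peak in the Mv2 column, Atp6v1b1 and Atp6v1c2 peak in Sus, and the tuft-cell genes peak in Mv1.

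Subunits of the V-ATPase, which pumps protons out of the cytoplasm, mostly lay above the other types, and few reached 4-fold. Of 25 subunit genes 18 were tested and 15 lay above a log2 ratio of 0, beside 2046 of all 3814 tested genes. By the rule 5 were higher and 0 lower, beside 5.87% and 6.92% of all tested genes. The median log2 ratio was 1.14 against 0.07 over all tested genes. Atp6v0d2, a subunit of specialised proton-secreting cells, was at 3.59, 3.91, 3.85 and 4.03 UMIs per 10000 in Mv2, with GBC next at 0.319 ± 0.290 (SD, n = 4). It was detected in 54.0% ± 1.55 of thinned Mv2 cells (80.6% unthinned) and 0.0409% of mature OSNs. The other four that passed were Atp6v1a at 7.32 ± 0.551, Atp6v1d at 8.88 ± 0.589, Atp6v0b at 18.3 ± 1.85 and Atp6ap2 at 11.2 ± 0.998. Atp6v0c, which forms the ring in the membrane, was at 29.9, 24.9, 22.2 and 28.6, 3.36 to 4.43 times the other types, and so missed the rule. Atp6v0a4 and Atp6v1g3, which are known from kidney intercalated cells, were low, at 0.0344 ± 0.0147 and 0.0428 ± 0.0248.

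Other leading genes encode transporters and enzymes. Atp7a and Atp7b, which encode copper-transporting ATPases, were at 3.93, 5.40, 5.89 and 5.18 and at 4.52, 5.26, 4.97 and 5.18 UMIs per 10000 in Mv2. The other types lay at 0.133 ± 0.0294 for Atp7a and 0.125 ± 0.0381 for Atp7b (SD, n = 4), below every Mv2 value. Pam, an enzyme that amidates peptides, was at 24.5, 27.6, 27.7 and 24.5, and Moxd1, a relative of the monooxygenases, at 11.7, 13.2, 14 and 12.7. Cox8b, an isoform of a cytochrome c oxidase subunit described in heart and muscle, was at 12.0, 12.7, 10.1 and 11. The gene model Gm37140 lies within Pam, and whether their counts are separate measurements was not tested.

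The remaining leading genes had varied functions. Galnt13 encodes an enzyme that starts O-linked glycan chains and was at 9.66, 11.1, 11 and 11.2 UMIs per 10000. Rcan2, a regulator of calcineurin, was at 6.36 ± 0.240, the membrane mucin Muc20 at 3.88 ± 0.450, and Cspg5, a membrane proteoglycan, at 10.5 ± 0.667 (SD, n = 4). Tnnt1, the slow skeletal muscle form of troponin T, was at 6.13, 7.48, 7.49 and 7.30. Nt5e (CD73), which makes adenosine from AMP, was at 2.71 ± 0.279, and Rnase1, a secreted ribonuclease, ran from 2.96 in mouse 3 to 5.99 in mouse 1. Smbd1 was at 20.2 ± 1.74, 4930469K13Rik at 12.6 ± 1.11 and Cldn25-ps, annotated as a pseudogene, at 9.25 ± 1.32. Galnt13 and Tnnt1 were lowest in mouse 1, while Rnase1 and Cldn25-ps were highest there.

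Few receptors and secreted signals reached the filter. Of 44 receptors listed 3 passed the filter and 2 were higher, beside 5.87% of all tested genes, and these 2 passed the filter through Mv2. P2ry14, a receptor for UDP-glucose, was at 3.55, 3.00, 2.83 and 3.35 UMIs per 10000, with INP next at 1.27 ± 0.154, and Adgrf5, an adhesion receptor, was at 1.21 ± 0.149 (SD, n = 4). Of 49 secreted signals 5 passed the filter, with Fgf10 admitted by its Mv2 level and Cartpt and Il25 by other types. Fgf10, a growth factor that acts on epithelia, was at 1.12, 1.26, 1.32 and 1.20 in Mv2 and 0.0130 ± 0.0114 in the other types, where it lay below the floor of 3 counts.

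In second messenger pathways, 10 of 31 genes listed were tested, Itpr3 and Adcy1 were higher in Mv2 and Gng13 and Adcy3 lower, beside 5.87% and 6.92% of all tested genes. The first pair passed the filter through Mv2 and the other pair through other types. Itpr3, the inositol trisphosphate receptor that releases calcium from stores, was at 1.79, 2.67, 2.45 and 2.53 UMIs per 10000, at least 22.3 times the other types. Adcy1, a calcium-stimulated adenylyl cyclase, was at 0.798, 1.59, 1.26 and 1.25, lowest in mouse 1. Among structural genes, 14 of 33 were tested, 4 were higher and 1 was lower, beside 5.87% and 6.92% of all tested genes. Eps8, Eps8l2 and Krt7 were among the 4 and passed the filter through Mv2. Eps8 and Eps8l2, which cap actin in microvilli and stereocilia, were at 1.63 ± 0.229 and 1.07 ± 0.0853, and the keratin Krt7 was at 6.25, 6.19, 5.57 and 6.09, with HBC2 next at 1.09 ± 0.226 (SD, n = 4). Krt19 was lower. The brush border proteins villin (Vil1) and espin (Espn) were at 0.0472 ± 0.0170 and 3.37 ± 0.124 in Mv2.

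Markers of other cell types were low in Mv2. Lists were read for mature and immature OSNs, precursors, horizontal basal cells, sustentacular cells, Bowman's gland, secretory respiratory cells and fibroblasts. In them 18 genes passed the filter and lay 4-fold or more below the other types, beside 6.92% of all tested genes. They had passed the filter through those other types, so their direction follows from it. The remaining genes of these lists were not tested. Omp, the mature OSN marker, was at 0.822 ± 0.236 UMIs per 10000 against 72.1 ± 3.78 in mOSN (SD, n = 4). None of the immune, blood, endothelial, glial or ciliated cell markers reached the filter. The summed immune list in Mv2 was 0.285 to 0.540 over mice, and the summed hemoglobin list was 0.107, 1.18, 0.364 and 3.32 in mice 1 to 4. In mouse 1 the neuronal genes Tubb3, Gap43 and Lhx2 were at 0.331, 0.276 and 0.221, against at most 0.0579, 0.0290 and 0.106 in the other mice. The part of these transcripts in other values was not tested.

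Mv2 was then compared with Mv1 alone. Of 3782 genes tested, 106 (2.8%) were higher in Mv2 and 139 (3.68%) were lower, with a median log2 ratio of 0.05. When edgeR's trimmed mean scaling replaced the scaling by UMI sums, the median ratio shifted by 0.14 and the split was 134 higher and 113 lower, or 54.3% of calls higher against 43.3%. Of the 224 genes higher in Mv2 than in the other types, 91 were also higher than in Mv1, 132 passed in neither direction, 0 were lower and 1 was not tested. After thinning, 2 of the 20 Mv1 cells of mouse 3 had Coch UMIs and none did in the other mice. The Coch level of Mv1 was 0, 0.272, 13.9 and 0.119 UMIs per 10000 in mice 1 to 4, and that of Ascl3 was 0.0485, 0.181, 2.57 and 0.119. Without mouse 3, 137 genes were higher in Mv2 and 155 lower, and without mouse 4 the counts were 141 and 145. The rule is easier to meet with fewer mice, so a rise follows from it and does not show an effect of the mouse left out.

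Lyz2, which encodes lysozyme 2, ranked first among genes higher in Mv2 than in Mv1, at 19.4, 11.9, 10.5 and 11.2 UMIs per 10000 in Mv2 and 0.137 ± 0.215 in Mv1 (SD, n = 4). Few cells carried this level, since 87 of 1718 thinned Mv2 cells had at least 3 Lyz2 UMIs and the 1591 with none were at 0.0614 ± 0.0522 when all their UMIs were summed. Nupr1, a stress-responsive nuclear protein, was at 13.4, 11.2, 11.6 and 13.6 in Mv2 and 0.263 ± 0.323 in Mv1. Sult1c1, a sulfotransferase, was at 16.4, 12.9, 13.4 and 13.1 in Mv2 and 0.311 ± 0.514 in Mv1, but at 21.9 ± 2.28 in Sus, so that it sets Mv2 apart from Mv1 and not from all types. Gsn (gelsolin), which severs actin filaments, was at 4.17 ± 0.298 in Mv2 and 0.219 ± 0.111 in Mv1. The chloride and sodium genes Cftr, Bsnd, Slc12a2, Scnn1a, Scnn1b and Scnn1g were higher in Mv2 than in Mv1 as well, and so was the pump subunit Atp1b1, at 23.3 ± 0.740 in Mv2 and 3.36 ± 1.23 in Mv1. Of the V-ATPase subunits 17 were tested against Mv1 and Atp6v0d2 was the 1 that passed, beside 2.8% of all genes tested. The median log2 ratio was 1.18 over the 17 and 0.05 over all genes tested against Mv1.

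Genes that were lower in Mv2 than in Mv1 included those of tuft cells. Of 9 tuft-cell markers listed 8 passed the filter, through their Mv1 levels, so that their direction follows from it. The summed level of the list was 44.2 to 71.2 UMIs per 10000 in Mv1 and 0.00970 to 0.0487 in Mv2. Trpm5 was at 7.13, 5.16, 6.06 and 5.69 UMIs per 10000 in Mv1, and in Mv2 it was under 3 counts in every mouse. The tuft-cell regulator Pou2f3, the acetylcholine-making enzyme Chat and the taste G protein Gnat3 were at 1.48 ± 0.414, 1.68 ± 0.409 and 3.18 ± 1.55 in Mv1 and under 3 counts per mouse in Mv2 (SD, n = 4). The largest lowest-mouse ratio was that of Adgrg6, an adhesion receptor, at 20.3, 15.9, 16.8 and 21.8 in Mv1 and at least 852 times lower in Mv2. Alox5, Alox5ap and Ltc4s of leukotriene synthesis were at 5.42 ± 1.28, 16.4 ± 1.95 and 10.8 ± 2.20 in Mv1 and at most 0.0292 in Mv2. The cytokine Il25 ran from 6.97 to 21.2 over mice in Mv1. Of 32 transcription factors listed, 22 were tested against Mv1. In Mv2 6 were lower (Hmx2, Hmx3, Pou2f3, Gfi1b, Ehf and Sox9), beside 3.68% of all tested genes. Another 5 were higher (Foxi1, Foxi2, Ascl3, Tfcp2l1 and Dmrt2), beside 2.8%.

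**Figure D3:**
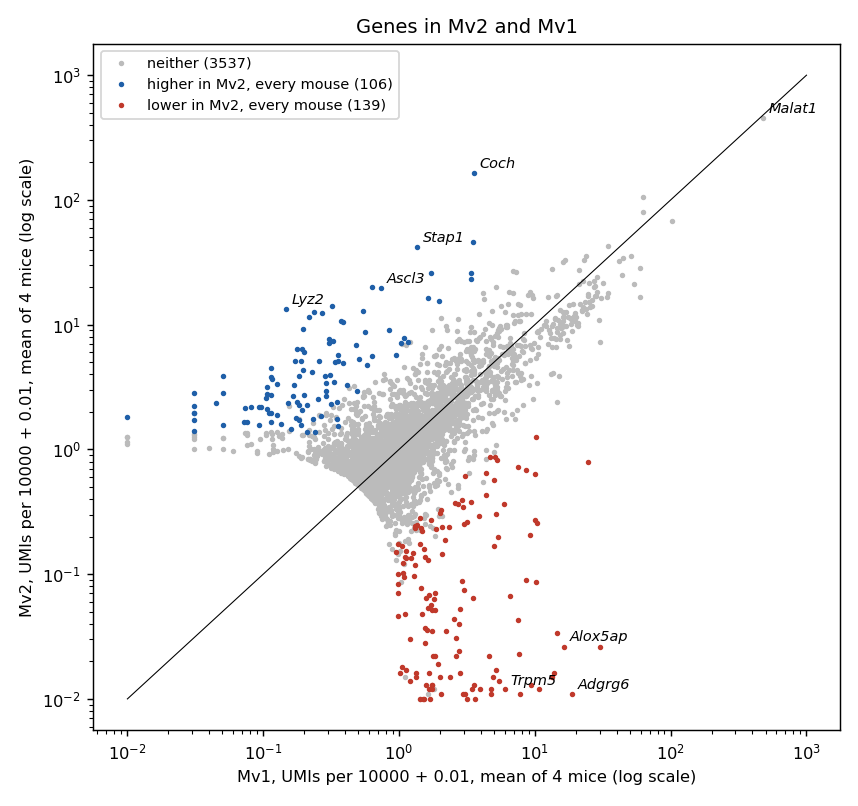
Mean level over 4 mice in Mv1 and Mv2 of each of the 3782 genes tested (UMIs per 10000, log axes, with the line of equal levels). The 106 genes higher in Mv2 in every mouse are blue, among them Coch, Stap1, Ascl3 and Lyz2 (which few Mv2 cells carried), and the 139 lower ones are red, among them Adgrg6, Alox5ap and Trpm5.

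Hepacam2, Elf3, Krt8, Krt18 and Espn passed in neither direction against Mv1, with differences of varied size. Hepacam2, a cell adhesion gene chosen after its values were seen, was at 8.26, 9.68, 10.7 and 9.66 UMIs per 10000 in Mv2 and 5.77, 6.15, 6.14 and 6.40 in Mv1, so that Mv2 was at 10.6 to 13.7 times the other types but 1.43 to 1.73 times Mv1. Elf3, an epithelial transcription factor, was at 2.73 ± 0.216 in Mv2 and 2.64 ± 0.677 in Mv1 (SD, n = 4), and the difference was smaller than the spread of Mv1 over mice. The keratins Krt8 and Krt18 were at 12.6 ± 0.830 and 24.0 ± 2.30 in Mv2, 16.2 ± 3.98 and 28.4 ± 5.22 in Mv1 and higher in Sus, at 27.6 ± 1.33 and 46.9 ± 1.69. Espn was at 10.4 ± 1.08 in Mv1, above every Mv2 value by less than 4-fold.

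Mitochondrial transcripts took a share of Mv2 near the top of the 10 types. The median percent of UMIs from mitochondrial genes was 2.24, 4.08, 3.15 and 2.81% in Mv2 cells of mice 1 to 4, a mean of 3.07 ± 0.772% (SD, n = 4). Mv2 ranked 2, 1, 1 and 3 of the 10 types in these mice. Sus, at 2.78 ± 0.396%, and Mv1, at 2.56 ± 0.683%, lay within the spread of Mv2, and mOSN was at 1.18 ± 0.197%. All 10 mitochondrially encoded genes that were tested lay above the other types, beside 2046 of all 3814 tested genes. Their median log2 ratio was 1.03, against 0.07 over all tested genes. The 4-fold rule was reached by 0 of them, beside 5.87% of all tested genes. Against Mv1, 6 of the 10 lay above 0, with a median of 0.42, beside 1984 of 3782 genes. Cytochrome b (mt-Cytb) was at 94.9, 128, 96.8 and 104 UMIs per 10000 in Mv2 and 89.3 ± 6.63 in Sus. Of 18 nuclear genes of mitochondrial biogenesis and respiration tested against the other types, 17 lay above 0, with a median log2 ratio of 0.50. Here too 0 reached the rule, and the shares of all tested genes are those given above. Against Mv1 17 of the 18 lay above 0 as well, with a median of 0.81. The summed level of the 25 genes listed was 105 ± 11.4 UMIs per 10000 in Mv2 and 105 ± 7.88 in mOSN, and iOSN2, at 116 ± 7.11, was above Mv2 in every mouse. Ppargc1a, a coactivator of mitochondrial biogenesis, was at 1.18, 1.30, 1.40 and 1.36, with mOSN next at 0.952 ± 0.0652.

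Barcodes with Mv2 transcripts were also found among the cells that the authors removed. A count of at least 3 Ascl3 plus Foxi1 UMIs, a limit set after the values were seen, was reached by 1714 of the 1768 Mv2 cells and by 0 of 10519 mature OSNs. It was also reached by 350 of 2003 barcodes in removed clusters of high mitochondrial content, with 64, 87, 42 and 157 in mice 1 to 4, and by 37 of 54 removed barcodes that the preliminary clustering had called Mv2. In all, 398 of 5950 removed barcodes reached it. All but 5 of the 350 had a Coch UMI. Their median mitochondrial percent was 5.38% to 11% over mice and their median UMI count 1606 to 3268.5, against 3701 to 6363 for the Mv2 cells over the limit. Their Coch level was 109.9, 75.6, 74.3 and 114 UMIs per 10000, below that of the Mv2 cells in each mouse, and Cftr was at 5.13 ± 0.717 (SD, n = 4). They also held Omp at 22.0 ± 3.14, against 0.83 ± 0.248 in the Mv2 cells over the limit, and the part of neuronal RNA in these values was not tested.

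Genes that varied among Mv2 cells were sought by the ratio of variance to mean at 2000 UMIs per cell, which is near 1 where only counting noise is present. Of 7873 genes, 61 (0.775%) reached a ratio of 1.5 in each of the 4 mice, and at 4000 UMIs per cell 112 did. Of the 61, 7 were mitochondrial and 7 were on the list of 12 genes that dissociation can induce (Fos, Egr1, Jun, Atf3, Fosb, Ier2 and Junb). A further overlap was that 16 of the 61 were higher in Mv2 than in the other types, beside 5.87% of all tested genes. The ratio favours genes of high level, so this overlap is not read as a result about them. Fos was at 21.5 ± 2.06 UMIs per 10000 in Mv2 and 47.9 ± 11.4 in HBC1, and 0 of the 11 tested genes of that list were higher or lower in Mv2 (SD, n = 4). The mature OSN marker Omp and the gene Gng13 varied too, at mean counts of 0.132 and 0.132 per thinned cell. By the 4-fold rule Gng13 was lower in Mv2 than in Mv1. Among leading genes of Mv2, the ratio was 4.10 to 4.45 for Coch, 2.01 to 2.24 for Cox8b and 1.70 to 2.19 for Ascl3. Their means were 33.6, 2.25 and 3.87 UMIs per thinned cell. Beyond counting noise the ratio grows with the level, so it does not rank genes of unlike level by their spread.

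Lyz2 had the highest ratio of variance to mean, at 47.9 to 90.1. Of 1718 thinned Mv2 cells, 1591 had no Lyz2 UMI, 40 had 1 or 2, and 87 had at least 3, which is 6.30, 2.71, 6.11 and 4.79% of the cells in mice 1 to 4. The limit was set after the values were seen, so the cells over it, called Lyz2 cells here, are described and not tested. Their median Lyz2 count was 24.5 to 52.5 of 2000 UMIs over mice, far from the limit. Of the 87 cells 86 had at least 3 Ascl3 plus Foxi1 UMIs. Their Ascl3 level was 23.9, 25, 26.2 and 29.1 UMIs per 10000, against 19.1 ± 2.47 in the Mv2 cells without Lyz2 (SD, n = 4). Foxi1 was at 6.69 ± 0.857 and 7.69 ± 0.790 in the Lyz2 cells and those without, and Cftr at 8.26 ± 1.24 and 7.37 ± 0.729.

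Beside Lyz2, 6 genes were at least 4 times higher in the Lyz2 cells in every mouse, among 619 genes with at least 2 UMIs per 10000 there. They were Cbr2, a carbonyl reductase of airway epithelium, Cpxm2, Bpifa1, a secreted defence protein of the airway, Dcxr, F3 (tissue factor) and Selenom. Cbr2 was at 10.7, 16.2, 17.9 and 18.3 in the Lyz2 cells and 0.368 ± 0.0280 in the cells without, and 61.0% ± 12.7 of the Lyz2 cells had a Cbr2 UMI against 5.71% ± 2.55 (SD, n = 4). Bpifa1 was at 2.05, 2.20, 7.51 and 3.65, highest in mouse 3, against 0.268 ± 0.177. Meg3, a long noncoding RNA that was at least 19.6 times the other types in Mv2 as a whole, had 0 counts in the Lyz2 cells of each mouse and was at 4.6 ± 0.713 in the cells without. It was the 1 gene at least 4 times lower in every mouse.

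Of the 25 leading genes of Mv2, 14 were lower in the Lyz2 cells in every mouse, 3 were higher in every mouse (Smbd1, Ascl3 and Muc20) and 8 were neither. Of the 1625 genes at 1 UMI per 10000 or more in Mv2 in every mouse, 394 (24.2%) were lower and 203 (12.5%) higher in this way. Coch was at 119, 89.8, 107 and 95.1 UMIs per 10000 in the Lyz2 cells of mice 1 to 4 and 169 ± 6.82 in the cells without. Stap1 was at 27.3 ± 1.87 and 42.9 ± 1.36, 4930469K13Rik at 3.51 ± 0.346 and 13.3 ± 1.17, and Cox8b at 3.42 ± 1.56 and 12.0 ± 1.35 (SD, n = 4). These 4 are among the 14, were chosen after their values were seen, and each was lower by under 4-fold in at least 1 mouse. Scnn1b was at 5.06 ± 0.679 and 5.04 ± 0.945 and Atp6v0d2 at 3.38 ± 0.102 and 3.88 ± 0.193.

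**Figure D4:**
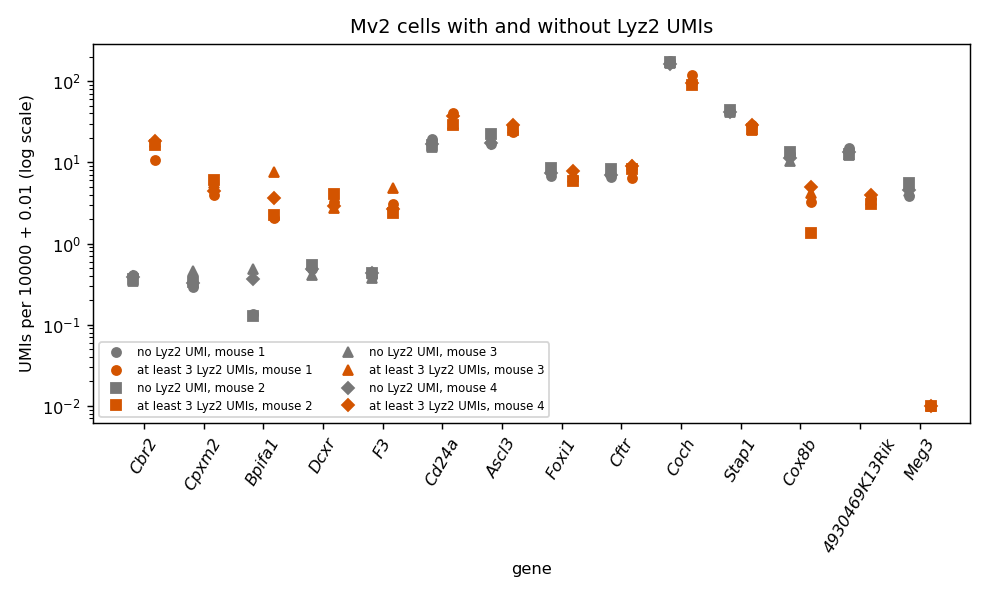
Levels (UMIs per 10000 with a small offset, log axis) of selected genes in Mv2 cells with no Lyz2 UMI and in those with at least 3 of 2000 UMIs from Lyz2, with 1 symbol per mouse. Cbr2, Cpxm2, Bpifa1, Dcxr and F3 are higher in the Lyz2 cells, Foxi1 and Cftr overlap between both, Ascl3 is higher in the Lyz2 cells in each mouse, and Meg3 has no counts in the Lyz2 cells of any mouse.

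Markers of other cells were read in the same Lyz2 cells, since Lyz2 is also a gene of macrophages. Ptprc, Tyrobp, Ctss, Cd52, Cd79a and Cd3e had 0 counts in the Lyz2 cells of mice 1, 2 and 4. In mouse 3 Ptprc was at 0.470 and Cd79a at 1.06 UMIs per 10000 in those cells. Cd74 was at 0.543, 0.735, 17.6 and 0.415 in the Lyz2 cells of mice 1 to 4. In the cells without Lyz2, Cd74 was lower in each mouse, at 0.230, 0.127, 3.47 and 0.265. HBC2 had the next highest Lyz2 level of the retained types, at 7.88, 2.01, 9.0 and 4.76. The secretory gene Reg3g was at 0.365 ± 0.223 in the Lyz2 cells and 0.0405 ± 0.0218 in the cells without, and Scgb1a1 had 0 counts (SD, n = 4). The Lyz2 cells held 5238 to 7974 UMIs on average over mice, and the cells without 4126 to 6415. The part of doublets in these values was not tested. With all Mv2 cells that had a Lyz2 UMI left out, 227 genes were higher and 262 lower than in the other types.

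Some GBC cells, the dividing progenitors of the epithelium, held Ascl3 and Foxi1 transcripts. At least 3 Ascl3 plus Foxi1 UMIs were present in 16 of 86, 11 of 29, 4 of 24 and 15 of 63 GBC cells of mice 1 to 4, 46 of 202 in all (24.3 ± 9.60%, SD, n = 4), while 151 GBC cells had none. The limit was set after the values were seen, and the Ascl3 and Foxi1 levels of these cells follow from it. Of the 46 cells 35 had no Coch UMI, and the 4 with over 20 Coch UMIs were all in mouse 4. Their Coch level was 0.0994, 1.28, 0.267 and 18.8 UMIs per 10000 in mice 1 to 4. Of the 46 cells 5 had been Mv2 in the preliminary clustering. Among all GBC cells, 6.98, 31, 33.3 and 14.3% had a doublet score in the top 4% of their library, against 4.41, 3.73, 2.75 and 2.04% of Mv2 cells, and the part of doublets was not tested.

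Beside Ascl3 and Foxi1, 9 genes were at least 4 times higher in every mouse in these GBC cells than in those without, among 532 genes with at least 2 UMIs per 10000. They were Stap1, Efcab2, Hepacam2, Plxna4, Dapl1, Upp1, Cdkn1c, Ociad2 and the V-ATPase subunit Atp6v0c. Stap1 was at 8.30, 22.5, 7.47 and 9.91 in these cells and 0.106 ± 0.101 in the others, and Hepacam2 at 3.66 ± 1.67 and 0.0642 ± 0.128 (SD, n = 4). Cdkn1c, an inhibitor of the cell cycle, was at 7.79 ± 4.58 in these cells, 0.564 ± 0.343 in the others and 0.615 ± 0.0855 in Mv2. The proliferation gene Top2a was at 2.66 ± 1.95 and 8.19 ± 1.02. Genes at least 4 times lower in every mouse numbered 8, with the neuronal genes Tubb3, Lhx2 and Ebf1 among them. The tuft-cell genes Pou2f3 and Trpm5 were at 0.366 ± 0.504 and 0.255 ± 0.30 in these cells, from 16 and 15 counts in all. Each was under 3 counts in 2 of the 4 mice. In the GBC cells without, they were at 0.0214 ± 0.0428 and 0.016 ± 0.0321.

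Against Mv2, the same GBC cells were at least 4 times higher in 6 genes in every mouse and lower in 30. The 6 were Dcn, Mdk, Marcksl1, Efcab2, Cdkn1c and Eef1b2. The 30 included the sodium channel genes Scnn1b and Scnn1g, the leading genes Cldn25-ps, Cox8b, Coch, Atp7a, Atp7b and Tnnt1, and Krt7. Scnn1b was at 0.183 ± 0.215 UMIs per 10000 in these cells and 5.06 ± 0.879 in Mv2, whereas Atp6v0c was at 18.3 ± 6.56 and 26.4 ± 3.49 (SD, n = 4). Over mice Ascl3 was at 0.239 to 0.703 times its Mv2 level and Foxi1 at 0.774 to 1.32 times, which follow from the limit, and Cftr was at 0.0697 to 0.446 times. With the 46 cells left out of GBC, 228 genes were higher and 266 lower in Mv2 than in the other types.

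**Figure D5:**
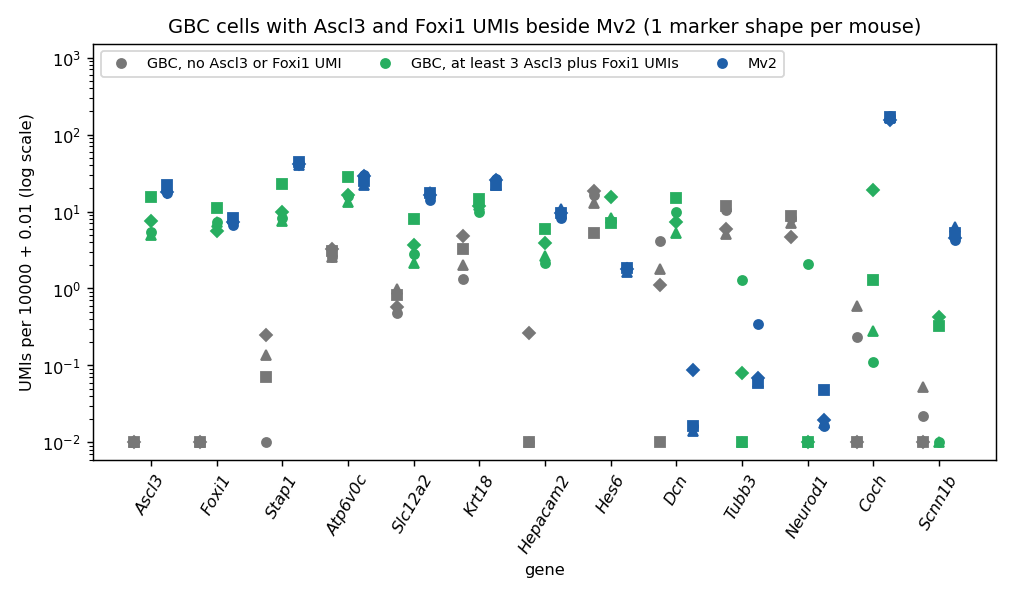
Levels (UMIs per 10000 with a small offset, log axis) of selected genes in GBC cells with no Ascl3 or Foxi1 UMI, GBC cells with at least 3 Ascl3 plus Foxi1 UMIs, and Mv2, with 1 symbol per mouse. The GBC cells over the limit lie below Mv2 for Coch and Scnn1b, with mouse 4 as the highest of them for Coch at 18.8.

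Several of the genes higher in Mv2 lay near each other in the genome (GRCm38). Scnn1g (chromosome 7, 121734479 to 121768475) and Scnn1b (chromosome 7, 121865038 to 121918514) were 96.6 kb apart on the plus strand. Muc20 (chromosome 16, 32777419 to 32797435) and Smbd1 (chromosome 16, 32804760 to 32810477) were 7.3 kb apart. 4930469K13Rik (chromosome 11, 33973961 to 34098554) lay 105.8 kb from Foxi1, at lower coordinates. The genes of the Muc20 and Foxi1 pairs were on the minus strand. Ascl3 lay 4.1 kb from Tmem9b and 26.3 kb from Nrip3. Of the 224 genes higher in Mv2, 50 (22.3%) had another of them within 200 kb, against 337 of the 3813 tested genes with a position (8.84%). Gene families and overlapping gene models are among the pairs, and no test was made.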

How the data were processed

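Single-cell transcriptomes of main olfactory epithelium were read from the UMI counts deposited by the authors, 1 matrix per mouse, made with Cell Ranger 6.0.1 against GRCm38 per the submitters' processing notes. Cell types and the retained set came from the deposited annotation, for which the authors had removed clusters of blood, immune and high-mitochondrial cells and then cells with over 10% mitochondrial UMIs or under 1000 genes, whose cell type columns were given in no numeric unit. A merged count table of the same cells and all authors' columns outside the 3 needed were not used.

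Counts were summed per mouse and type over 55511 genes with Python 3.11.15, numpy 2.4.6, scipy 1.17.1 and pandas 2.3.3, and divided by the sum. Library totals were 23157467 to 32382702 UMIs. Intervals and floors cover counting error only. Genes were named from 29 lists (409 of 410 list genes found) and by rank, namely the 10 highest levels, the 25 largest ratios over the other types and the 15 largest against Mv1 each way among genes at 1 UMI per 10000 or more, the varying genes and those at the edge of the rule. The members and lists were chosen with earlier results of these data known. Genes outside this rule, such as those that set apart Lyz2 or GBC cells, and the limits behind those cells were chosen after their values were seen. The clusters were drawn on these same genes, so no p-value was computed. Doublets were left in, and cells in the top 4% of Scrublet scores (scanpy 1.11.5) were removed in an alternative. The trimmed mean scaling was from edgeR 4.0.16 in R 4.3.3, used for scaling factors alone. The fold calls and the variance to mean count were tested on simulated counts, and the other calculations were not. A few genes are not reported here.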

Additional observations from a re-analysis of the deposited data

Results flagged for a closer look

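Of 56 groups of 4 mice that were examined, 6 held a mouse that stood apart from the rest beyond Dixon's limit, and chance gives about 1 in 20. Mouse 1 stood apart in 5 of them. Its Galnt13 and Tnnt1 levels in Mv2, at 9.66 and 6.13 UMIs per 10000, lay below those of the other mice. Its Lyz2 and Sult1c1 levels, at 19.4 and 16.4, lay above them. Cftr was detected in 70.6% of its thinned Mv2 cells, below the shares of the other mice. Mouse 3 had the largest Mv2 share of retained cells, at 13.3%.

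Outside the retained cells, 350 barcodes in the removed clusters of high mitochondrial content had at least 3 Ascl3 plus Foxi1 UMIs, a limit that no mature OSN reached.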

How the results depend on the processing

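No paired analysis was possible because the animals form 1 group, with no second group to pair, and every ratio was already taken within a mouse. The balance of higher and lower calls turned under some alternatives. Against the other types, 224 genes were higher and 264 lower. Without the filter on low levels 1221 were lower, with a filter of 2 UMIs per 10000 the counts were 67 and 58, and with a 2-fold rule they were 495 and 420. Summing all other cells in place of equal weights gave 362 higher. Leaving out each mouse gave 225 to 232 higher and 265 to 270 lower. The rules for counting a gene ask for every mouse, so they are easier to meet with fewer mice. A rise without a mouse follows from that, here, against Mv1 and for the varying genes. Against Mv1, where 106 were higher and 139 lower, no filter gave 246 lower, a filter of 2 gave 48 and 40, a 2-fold rule gave 339 and 279, and cells with at least 2000 genes gave 46 higher. Leaving out each mouse gave 110 to 141 higher and 145 to 155 lower. EdgeR's scaling gave 134 higher and 113 lower. Mv1 rests on 84314 to 206270 UMIs per mouse, and the part of depth in these counts was not tested. The Mv2 share was 9.87% with a limit of 5% mitochondrial UMIs and 10.7 to 11.6% without each mouse. In its place, barcodes of any class with at least 3 Ascl3 plus Foxi1 UMIs were 9.96% of all barcodes, with 398 removed barcodes and 46 GBC cells among them. The share with a given marker was 100% at 5000 UMIs per cell and unthinned, and 99.4 to 99.7% without each mouse. The mitochondrial median was 2.73 to 3.35% without each mouse. Varying genes numbered 62 to 67 without each mouse, 112 at 4000 UMIs per cell and 50 without the highest Scrublet scores. They numbered 51, 53, 57 and 51 in 4 other draws and 42 without all Mv2 cells that had a Lyz2 UMI. The causes were not tested. Of 83 named genes, 21 moved beyond their spread with at least 2000 genes per cell and 13 without the highest Scrublet scores. EdgeR's scaling moved 12, a limit of 5% mitochondrial UMIs 2, and leaving mitochondrial genes out of the total 1. Leaving out 1 of the 4 mice cannot shift a mean by its spread, so the 0 moved there follow from the rule. A change of sign was counted only for genes that the 4-fold rule had called, and 0 of these reversed. A floor per type gave 221 higher and 265 lower than in the other types. This floor, the other draws and the share over all barcodes were chosen after seeing the data. So were the removal of Mv2 cells with a Lyz2 UMI and that of GBC cells over the limit.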

Other observations

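Wfdc2, which encodes a secreted protein of airway epithelia, was at 52.0, 41.3, 42.0 and 50.1 UMIs per 10000 in mice 1 to 4, 7.57 to 10.2 times the other types, with HBC2 next at 20.4 ± 5.31 (SD, n = 4). It also varied among Mv2 cells, with a ratio of variance to mean of 2.66 to 3.42. Tmsb4x, an actin-binding thymosin, was at 48.6, 36.7, 40.4 and 46.0 in Mv2 and 85.1 ± 6.35 in the other types and passed in neither direction. Malat1, a nuclear noncoding RNA, was at 397, 495, 502 and 410.0 in Mv2 and 482 ± 48.1 in Mv1.

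Transcripts of neutrophils and antigen-presenting cells were among the varying genes at low counts. S100a8 and S100a9 had means of 0.0420 and 0.0506 UMIs per thinned Mv2 cell and ratios of 2.07 to 6.27 and 1.84 to 12.0, and Cd74 had a ratio of 1.5 to 14.1. The Cd74 mean was 0.725 in mouse 3 and 0.0458 to 0.0488 in the other mice, so that without mouse 3 the mean over mice fell from 0.216 to 0.0469. The mitochondrial rRNA mt-Rnr2 was at 26.9, 100.0, 83.2 and 60.4 UMIs per 10000 in mice 1 to 4, lowest in mouse 1.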
